A study of Mus musculus with 16 samples.

Results

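The genes described here are lipoprotein lipase and 7 genes that act on it or beside it in the handling of circulating triglyceride: Lpl, Angptl4, Angptl8, Gpihbp1, Lmf1, Lipc, Lipg and Vldlr. They were taken by name, each through its gene identifier, as 8 of the 55385 genes of the count table, of which 37084 had a count in any library. The libraries are short-read RNA-Seq of male C57BL/6 mice that were 12 weeks old when acquired and were then either Fed or kept without food for 24 h (Fasting). The 8 tissues were heart, muscle, both adipose depots (white and brown), lung, liver, kidney and spleen. Tissue powder of the 3 mice of a treatment was pooled in equal parts before the RNA was extracted, so each tissue and treatment is represented by 1 library, 16 libraries in all, and no animal can be followed on its own. No genotype, transgene or drug differed between the groups. The comparison asked how the transcript of each gene differed with fasting, tissue by tissue.

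Lipoprotein lipase is the enzyme on the wall of capillaries that cuts the triglyceride of chylomicrons and very-low-density lipoproteins into fatty acids, which the tissue behind the capillary then takes up. It is made by adipocytes, myocytes and some other cells rather than by the endothelium, folds with the help of the endoplasmic reticulum protein encoded by Lmf1, and is carried across the capillary and held there by the protein of Gpihbp1. Angptl4 and Angptl8 encode secreted angiopoietin-like proteins that lower the activity of the enzyme; in textbook accounts Angptl4 is raised by fasting and fatty acids and Angptl8 by feeding and insulin, which turns triglyceride toward muscle or toward fat. Lipc (hepatic lipase) and Lipg (endothelial lipase) are relatives of Lpl with other preferred substrates, and Vldlr encodes a receptor that binds triglyceride-rich particles.

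In the deposited table (GRCm38), Lpl lies on chromosome 8 (68880491 to 68907448, plus strand), Angptl4 on chromosome 17 (33773750 to 33781830, minus strand) and Gpihbp1 on chromosome 15 (75596628 to 75599481, plus strand). Lmf1 also lies on chromosome 17 (25579085 to 25662826, plus strand) and Vldlr on chromosome 19 (27216484 to 27254231, plus strand). Lipc spans 70798128 to 70952226 of chromosome 9 on the minus strand, and 3 sparsely counted genes, Gm25149, Gm3436 and Gm32017, fall within it without sharing an exon base. Angptl8 (chromosome 9, 21835510 to 21837347, plus strand) lies wholly inside Dock6, which is read from the opposite strand and shares 0 exon bases with it.

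RefSeq promoter windows (GRCm38.p6) of 250 bases before to 50 bases after a start site were found for 4 of the 8 genes (6 windows, among 32851 in all). The windows at the annotated 5′ end of Angptl8, Lipc and Vldlr are printed as examples, 1 each for the secreted inhibitor, the lipase and the receptor among these genes. Capitals mark matches to the motifs searched, and the strand is that of the gene.
Angptl8 (chr9:21835260-21835559, plus strand): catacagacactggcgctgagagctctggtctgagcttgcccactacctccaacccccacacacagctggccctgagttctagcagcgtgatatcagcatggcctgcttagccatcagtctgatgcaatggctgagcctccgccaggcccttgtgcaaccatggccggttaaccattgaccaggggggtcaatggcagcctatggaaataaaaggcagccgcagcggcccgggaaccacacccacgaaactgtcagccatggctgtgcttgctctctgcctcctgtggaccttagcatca
Lipc (chr9:70952172-70952471, minus strand): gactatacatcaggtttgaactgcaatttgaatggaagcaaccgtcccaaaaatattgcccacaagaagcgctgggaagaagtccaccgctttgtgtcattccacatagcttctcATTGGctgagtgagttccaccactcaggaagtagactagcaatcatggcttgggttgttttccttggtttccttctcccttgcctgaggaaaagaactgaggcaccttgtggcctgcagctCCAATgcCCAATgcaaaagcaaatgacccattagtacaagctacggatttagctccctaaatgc
Vldlr (chr19:27216234-27216533, plus strand): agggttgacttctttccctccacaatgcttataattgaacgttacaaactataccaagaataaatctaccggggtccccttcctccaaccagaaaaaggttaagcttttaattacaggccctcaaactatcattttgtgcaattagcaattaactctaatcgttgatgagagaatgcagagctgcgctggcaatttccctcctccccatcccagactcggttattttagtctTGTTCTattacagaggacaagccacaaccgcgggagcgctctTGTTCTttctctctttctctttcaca
The motifs, read on both strands, were AGGTCA (the core word of nuclear receptor elements, in 16.3% of all windows), a direct repeat of that word 1 base apart with at most 2 mismatches in 12 letters (3.86%), GTAAACA (FoxO, 3.65%), CACGTG (E-box, 7.15%), AGAACA (a word of glucocorticoid receptor elements, 19%), TATAAA (13.6%) and CCAAT (37.4%). The Angptl8 window held none of these letters. The Lipc window held CCAAT at 3 places, with first bases at -135 (on the opposite strand), -14 and -7 from the start site, counted with the start as 1. The Vldlr window held AGAACA at 2 places on the opposite strand, at -18 to -13 and at 25 to 30. The other Lipc window, at chr9:70934759-70935058, held AGGTCA once on each strand and 1 direct repeat at -22 to -10, and CCAAT at -177 to -173. The other Vldlr window, at chr19:27216770-27217069, held CCAAT at -78 to -74, and the Lmf1 window held none of the motifs. A match is a description of letters and not of a bound site.

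Library totals ran from 14245178 to 36069968 counts, so 3 counts, the floor used here, stand for 0.0832 to 0.211 CPM, the counts scaled to a library total of 1000000. The markers of each labelled tissue were at their highest summed level in that tissue, for example 134625 CPM fed and 133467 CPM fasting for 6 skeletal muscle genes in muscle, and 5931 and 5213 CPM for 5 brown adipocyte genes in brown adipose. Several tissue pairs differed in marker genes of other organs or cell types. Between the fed and the fasting library the summed CPM of 6 pancreatic acinar genes went from 311 to 11.5 in spleen and from 72 to 143 in liver. In white adipose the sum of 5 kidney tubule genes went from 67.2 to 747 CPM, of which Lrp2 alone had 34.9 and 710 CPM, and that of 5 B cell genes from 346 to 82.7 CPM. The sum of 6 skeletal muscle genes went from 2388 to 1097 in brown adipose, that of 7 hepatocyte genes from 25.5 to 86.6 in heart and that of 6 cardiomyocyte genes from 1011 to 526 in lung. In bulk tissue fewer cells of a type and less RNA per cell cannot be told apart.

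A gene was called within a tissue when its log2 fold change (fasting over fed, on CPM + 0.01) exceeded 0.5 in size and a two-sided Fisher's exact test, its count against all others, gave an unadjusted p under 0.01. With 1 library a treatment this test compares 2 libraries and not the conditions, and the 95% intervals given with folds are exact counting intervals that cover no difference between mice. Of the 64 pairs of gene and tissue, 18 were called higher in fasting and 8 lower, and 4 pairs had at most 3 counts in both libraries and are given no fold. In heart, white adipose and lung 3 of the 8 genes were called higher, against 4.33%, 13.2% and 2.68% of all genes tested there, and in muscle also 3 against 4.42%. Liver and spleen had 2 called higher each (background 4.46% and 2.31%), and brown adipose and kidney 1 each (5.39% and 2.77%). Called lower were 2 genes in white adipose, 2 in brown adipose and 2 in liver, where 5.84%, 7.58% and 9.52% of all genes were called lower, and 1 each in heart and kidney, where the background was 5.80% and 3.93%. No member was called lower in muscle, lung or spleen, with 9.39%, 6.49% and 1.62% of all genes called lower in those tissues. These shares by tissue, here and below, are over all genes with a count, for example 29956 in white adipose, where 17494 reached 1 CPM. Genes with few counts can hardly be called, so the share among genes at the levels of most members may be higher. That share was not computed. Since the spread between animals is unknown here, the calls were repeated in edgeR's exact test with a presumed coefficient of variation. At 0.2 there were 7 pairs called higher and 3 lower, and at 0.4 there were 4 and 2.

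**Figure D1:**
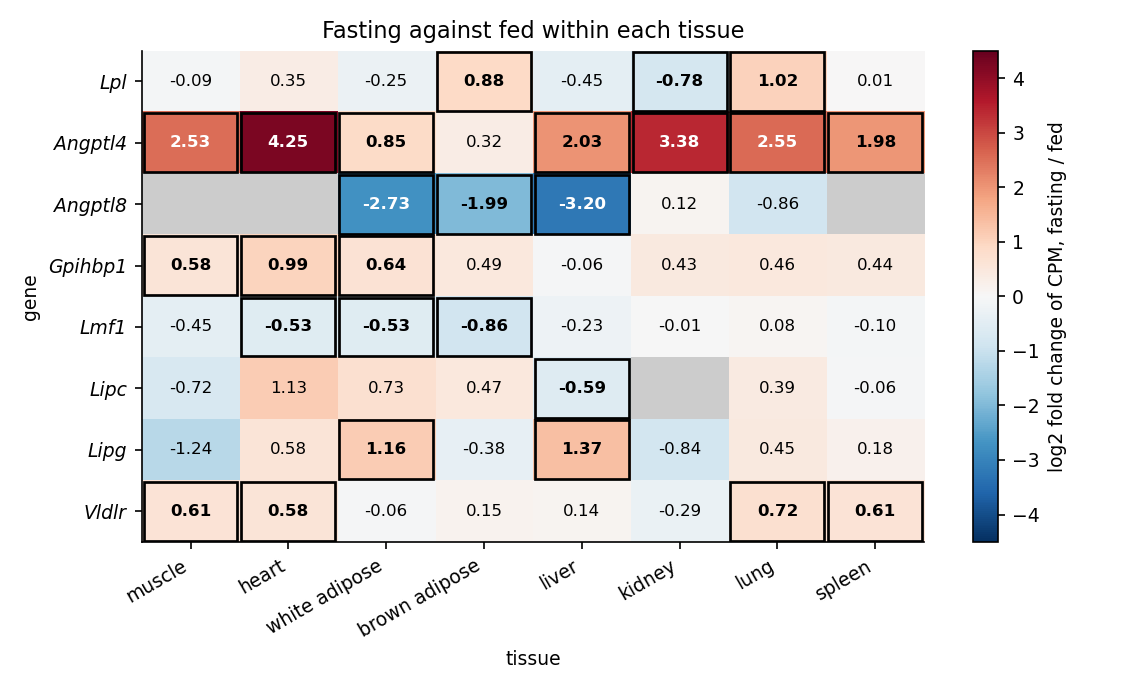
Log2 fold change of CPM (fasting over fed) for the 8 genes (rows) in the 8 tissues (columns), 1 library per treatment. Black frames and bold type mark the 26 called pairs, grey cells the 4 pairs with at most 3 counts in both libraries; the Angptl4 row is above 0 throughout, from 0.32 in brown adipose to 4.25 in heart, and 5 of the Lipc values outside liver rest on 8 counts or fewer in each library.

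The tissues in which the genes were read most differed from gene to gene. Lpl was highest in white adipose (mean of the fed and the fasting library 5815 CPM), heart (4573 CPM) and brown adipose (4282 CPM), where the values of heart and brown adipose overlapped, and lowest in spleen (34.9 CPM) and liver (33.4 CPM), which also overlapped. Angptl4 was highest in brown adipose (558 CPM) and white adipose (468 CPM), which overlapped, and from liver down to muscle every neighbour in its order overlapped with the next. Angptl8 was highest in liver (32.1 CPM) and brown adipose (17.3 CPM), which overlapped, with 6.29 CPM in fasting liver and 6.95 CPM in fasting brown adipose. Gpihbp1 was highest in white adipose, lung, brown adipose and heart (129, 110, 86.8 and 81.5 CPM), each overlapping with the next. Lmf1 was the most even of the genes, from 8.47 CPM in fasting muscle to 53.5 CPM in fed brown adipose. Lipc was a liver transcript at 120 CPM, with 3.85 CPM in spleen and under 1 CPM elsewhere, Lipg was led by lung (97.8 CPM) and liver (23.2 CPM), and Vldlr by heart (886 CPM) and muscle (614 CPM), which overlapped. These orders are on library totals; with TMM factors the leading tissue became heart for Lpl, liver for Lmf1 and muscle for Vldlr, and stayed the same for the other genes.

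**Figure D2:**
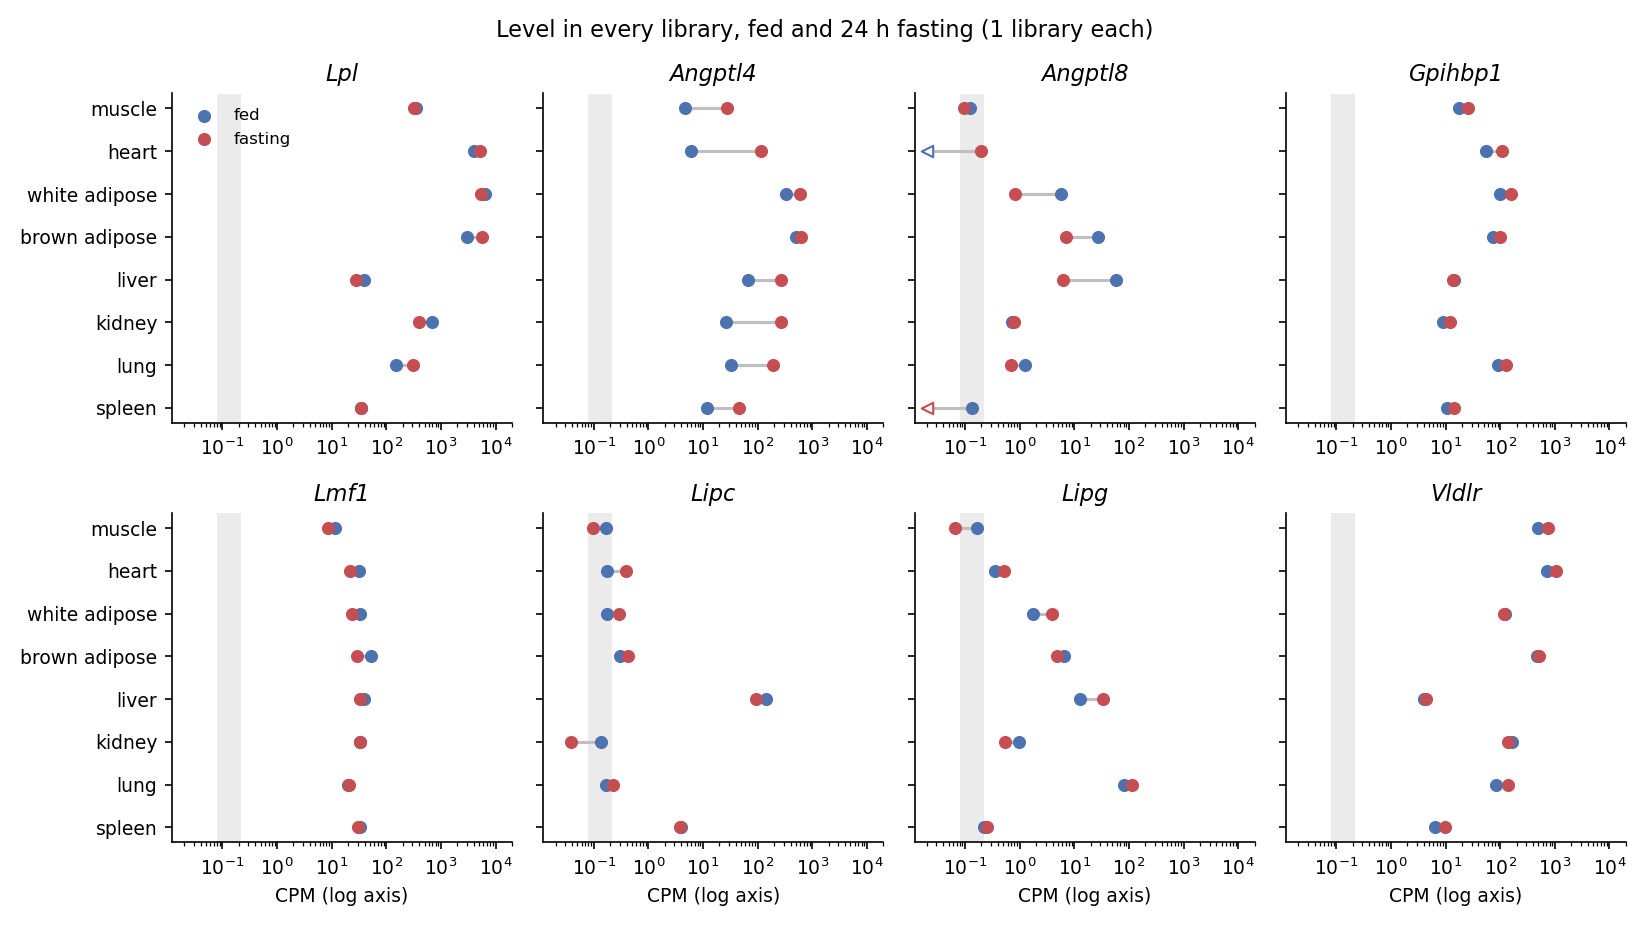
CPM (log axis) of each gene in every tissue, fed in blue and fasting in red, 1 library per point, with the grey band at 0.0832 to 0.211 CPM marking the floor of 3 counts and open triangles marking a count of 0. Lpl ranges from 28.2 CPM in the fasting liver to 6309 CPM in the fed white adipose library, and the widest gaps between treatments belong to Angptl4 and Angptl8.

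Lpl, the enzyme itself, did not move in 1 direction: it rose in lung and brown adipose, fell in kidney and was not called in the other tissues. In lung the fed library had 151 CPM and the fasting library 307 CPM, 2.03-fold higher (95% counting interval 1.96 to 2.10). Brown adipose had 3020 CPM fed and 5543 CPM fasting, 1.84-fold higher (1.81 to 1.86). Kidney had 685 CPM fed and 400 CPM fasting, 1.71-fold lower (1.67 to 1.76). Heart, with 4017 CPM fed and 5128 CPM fasting (log2 fold change 0.35), and white adipose, with 6309 CPM fed and 5321 CPM fasting (-0.25), leaned in opposite directions without reaching the fold for a call. Liver went from 38.6 to 28.2 CPM (-0.45), muscle from 348 to 327 CPM (-0.09) and spleen from 34.7 to 35.1 CPM (0.01). On counting error alone 7 of these 8 intervals leave out 0, spleen being the exception, so the number of libraries and not their depth limited the comparison. None of the 3 calls held at a presumed variation of 0.2.

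Cell type markers moved beside these Lpl values in part. In lung, where alveolar macrophages and lipid-storing interstitial cells are known to make the enzyme, 0 of 9 macrophage markers were called, with a summed level of 4669 CPM fed and 4263 CPM fasting. Of 8 adipocyte markers in lung 5 were called higher and 1 lower, and their sum went from 187 to 326 CPM. Called higher were Adipoq (adiponectin, 9.32 and 13.9 CPM), Cfd (adipsin, 48.7 and 72.9 CPM) and Fabp4 (28.4 and 60.8 CPM). Cidec (18.3 and 35.5 CPM) and Pnpla2 (68.6 and 133 CPM) were called higher too. Lep was called lower (0.932 and 0.360 CPM), and Plin1 (9.51 and 7.37 CPM) and Retn (2.86 and 2.22 CPM) leaned lower without a call. All 5 B cell markers were called lower in lung, with a sum of 343 CPM fed and 177 CPM fasting, as were 5 of 6 cardiomyocyte markers (1011 and 526 CPM). In brown adipose all 6 skeletal muscle markers were called lower. The 8 adipocyte markers there had a median log2 fold change of -0.22, with 1 called higher (Cidec, 705 and 1528 CPM) and 2 lower (Lep, 62.2 and 4.14 CPM; Retn, 41.4 and 23.9 CPM), while their sum went from 11879 to 13284 CPM. Of the 5 brown adipocyte markers 1 was called higher and none lower, with a median of -0.17 and a sum that went from 5931 to 5213 CPM. In kidney, where Lpl fell, 3 of the adipocyte markers were called higher and 2 lower, with Adipoq at 7.44 CPM fed and 8.26 CPM fasting, and the sum of 5 tubule markers went from 37243 to 33688 CPM. Of 5 brown adipocyte markers 3 were called higher in kidney, among them Cidea (0.936 and 4.89 CPM) and Ucp1 (0.579 and 2.13 CPM), and their sum went from 10.6 to 15.5 CPM. In muscle 5 of the adipocyte markers were called lower, Adipoq going from 16.1 to 6.79 CPM, and 1 higher (Pnpla2, 87.9 and 239 CPM), which took the sum from 300 to 421 CPM. The part of these shifts in the Lpl values was not tested.

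Angptl4, the fasting-linked inhibitor of the enzyme, was higher in the fasting library of all 8 tissues and called in 7. Its largest change was in heart, where 5.98 CPM fed became 114 CPM fasting, 19.1-fold higher (95% counting interval 15.7 to 23.6). Kidney followed, from 25.9 to 270 CPM, 10.4-fold higher (9.57 to 11.4). Lung went from 32.2 to 188 CPM (5.84-fold, 5.46 to 6.25) and muscle from 4.69 to 27.2 CPM (5.80-fold, 4.77 to 7.13). All 4 of these tissues had less Angptl4 than liver when fed, as did spleen. Liver rose from 66.1 to 271 CPM (4.10-fold, 3.87 to 4.33) and spleen from 11.7 to 46 CPM (3.94-fold, 3.45 to 4.52). The adipose tissues, where the fed level was highest, changed least: white adipose rose from 333 to 602 CPM (1.81-fold, 1.76 to 1.85), and brown adipose went from 496 to 621 CPM (1.25-fold, 1.21 to 1.29), which was under the fold for a call. Of 21965 genes with at least 1 CPM in any library, 0.223% were called higher in at least 7 tissues. At a presumed variation of 0.2 in edgeR's exact test 6 of the 7 calls remained, all but white adipose, and at 0.4 those in muscle, heart, kidney and lung remained. In heart 2 of the 8 adipocyte markers were called higher (Fabp4, 370 and 831 CPM, and Pnpla2, 202 and 597 CPM) and 1 lower. Only 3 of the 8 reached 1 CPM in either heart library. Adipoq stood at 0.871 CPM fed and 0.262 CPM fasting and Lep at 0 in both libraries. In the same heart libraries 6 of 7 hepatocyte markers were called higher, with sums of 25.5 CPM fed and 86.6 CPM fasting. Of the 8 adipocyte markers 3 were called higher and 0 lower in spleen (sums 45.1 and 69.3 CPM). In lung 5 were called higher and 1 lower, in kidney 3 and 2, in liver 2 and 0. In white adipose 1 was called higher and 3 lower, in muscle 1 and 5. In spleen the 6 acinar markers were all called lower. In kidney 3 of 5 brown adipocyte markers were called higher, with a sum of 10.6 CPM fed and 15.5 CPM fasting. The part of these markers in the Angptl4 values was not tested.

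**Figure D3:**
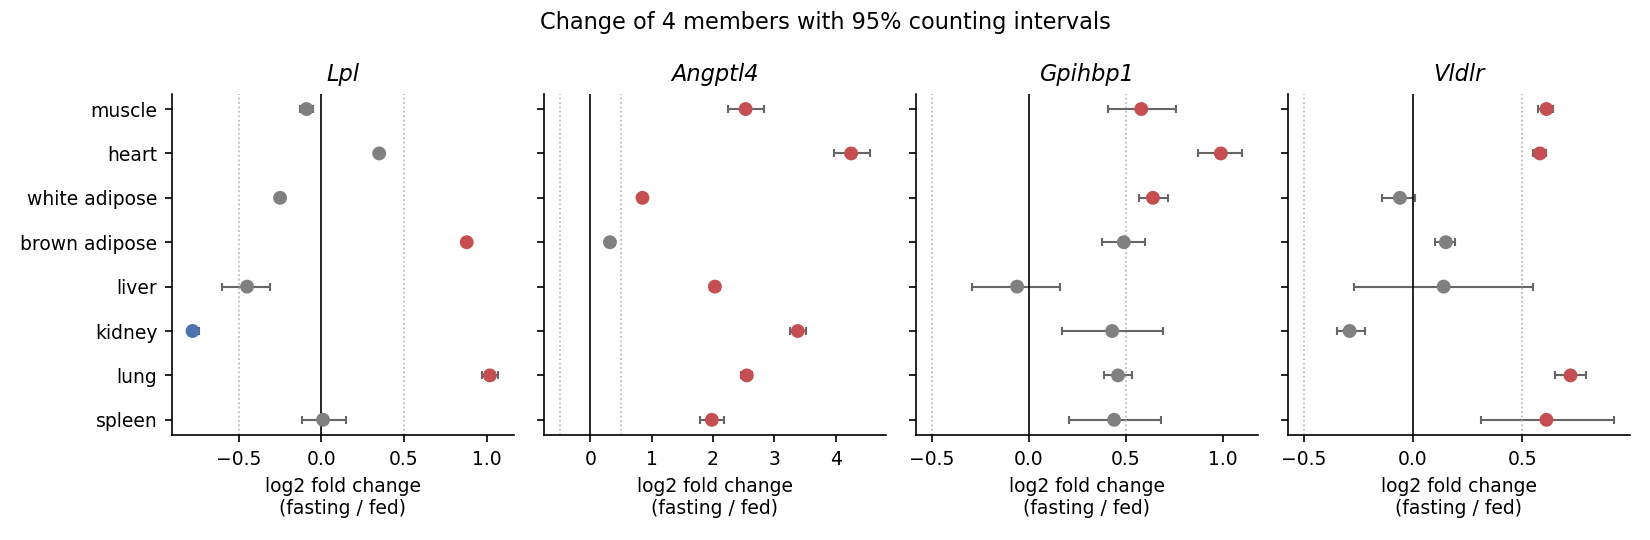
Log2 fold change (fasting over fed) of Lpl, Angptl4, Gpihbp1 and Vldlr by tissue, with bars for the 95% counting interval of the 2 libraries, red for called higher, blue for called lower and grey for not called; dotted lines mark 0.5 in either direction, and each panel has its own axis. Angptl4 reaches 4.25 in heart, whereas Gpihbp1 stays between -0.06 and 0.99 and Lpl lies on both sides of 0.

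The transcript of Angptl4 was set against that of Lpl within each library, both as CPM per kilobase of exon. In fed heart the ratio was 0.00441 and in fasting heart 0.0660, 15.0 times as high, and in kidney it went from 0.112 to 2.0, 17.9 times as high. Muscle went from 0.040 to 0.247 and white adipose from 0.156 to 0.335. In these last tissues Lpl stayed the more abundant transcript, whereas per kilobase the order turned in kidney and in lung, where the ratio went from 0.631 to 1.81. In spleen the transcripts were nearly level when fed and Angptl4 led when fasting (0.993 and 3.88), while in liver Angptl4 led in both libraries (5.07 and 28.4). These orders rest on the division by exon length (10478 bases for Lpl and 3541 for Angptl4): as CPM, Lpl stayed above Angptl4 in fasting kidney (400 and 270) and fasting lung (307 and 188), and in spleen it was above when fed (34.7 and 11.7) and below when fasting (35.1 and 46). Brown adipose alone went the other way, from 0.486 to 0.331, because its Lpl level rose by more than its Angptl4 level. The ratio was therefore higher in the fasting library in 7 of 8 tissues; it is built from the same 2 values as the calls above and is no further test of them.

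**Figure D4:**
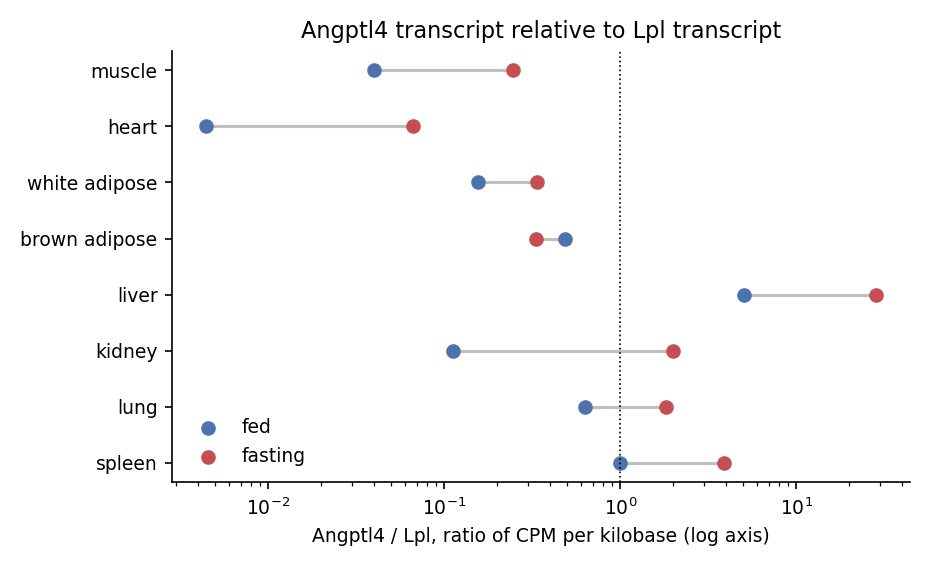
Ratio of Angptl4 to Lpl transcript (CPM per kilobase, log axis) in each tissue, fed in blue and fasting in red, 1 library per point, with the dotted line at equal levels. The ratio rises with fasting in every tissue but brown adipose, where it goes from 0.486 to 0.331, and per kilobase it lies above 1 in fasting kidney, lung, spleen and liver.

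Angptl8, the feeding-linked member of the same protein family, was called lower in liver, white adipose and brown adipose and in none of the other tissues. Liver had 58.0 CPM fed and 6.29 CPM fasting (1335 and 157 counts), 9.20-fold lower (95% counting interval 7.81 to 10.9). White adipose had 5.62 CPM fed and 0.839 CPM fasting (131 and 23 counts), 6.64-fold lower (4.28 to 11), and brown adipose 27.6 and 6.95 CPM (458 and 99 counts), 3.96-fold lower (3.19 to 4.98). In liver and white adipose, then, Angptl8 fell where Angptl4 rose. In the other tissues no library had more than 38 counts: lung had 38 and 25 counts (log2 fold change -0.86, 95% interval -1.66 to -0.10, not called), kidney 16 and 20, and muscle, heart and spleen at most 3 counts in either library, for which no difference could be seen at this depth. Of all genes with at least 1 CPM in any library, 5.56% were called lower in at least 3 tissues. All 3 calls remained at a presumed variation of 0.2 in edgeR's exact test, and those in liver and white adipose at 0.4. Dock6, within which the gene lies, went from 35.7 to 16.7 CPM in liver (-1.09) but from 101 to 94.9 CPM in white adipose (-0.08) and from 53.9 to 55.9 CPM in brown adipose (0.05). The strand setting of the counting is not given in the sources used here, so in liver reads of the host gene and of Angptl8 cannot be told apart by strand. All 7 hepatocyte markers were detected in both liver libraries, 2 of them called higher and 1 lower, with sums of 88342 CPM fed and 84435 CPM fasting. In white adipose 3 of 8 adipocyte markers were called lower (Plin1, Lep and Retn) and 1 higher, with sums of 23513 CPM fed and 21500 CPM fasting, and in brown adipose 2 were called lower and 1 higher. The part of these markers in the Angptl8 values was not tested.

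Gpihbp1, the endothelial anchor of the enzyme, was higher in the fasting library of 7 tissues, by less than 2-fold in each. It rose in heart from 54.7 to 108 CPM (1.98-fold, 95% counting interval 1.83 to 2.15), in white adipose from 101 to 158 CPM (1.56-fold, 1.48 to 1.64) and in muscle from 17.4 to 26.0 CPM (1.5-fold, 1.33 to 1.69). Just under the fold for a call were brown adipose (72.3 and 101 CPM, log2 fold change 0.49), lung (92.2 and 127 CPM, 0.46), spleen (10.4 and 14.2 CPM, 0.44) and kidney (9.13 and 12.3 CPM, 0.43). Liver, whose sinusoids are lined by another kind of endothelium, had 14.5 CPM fed and 13.8 CPM fasting (-0.06, interval -0.29 to 0.16), and this value changed sign with TMM or DESeq2 scaling (0.07 and 0.06). Among genes with at least 1 CPM in any library, 3.82% were called higher in at least 3 tissues. With TMM factors lung (0.54) and brown adipose (0.51) were called as well, and at a presumed variation of 0.2 none of the 3 calls held.

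Since the gene is expressed by endothelial cells, its change was set beside that of 10 endothelial marker genes, among them Pecam1, Cdh5 and Kdr. In heart their median log2 fold change was -0.05, with a range from -0.90 to 0.43, against 0.99 for Gpihbp1. In white adipose the median was -0.27 against 0.64, and in muscle -0.17 against 0.58. All 10 markers lay below Gpihbp1 in muscle, heart, white adipose, kidney and lung, and 9 of 10 in brown adipose, liver and spleen. The summed level of the markers went from 1324 to 1117 CPM in heart, from 1655 to 1478 CPM in white adipose and from 370 to 307 CPM in muscle. Of the 80 pairs of marker and tissue 1 was called higher and 9 lower, the higher one being Pecam1 in brown adipose (138 and 204 CPM), where by tissue 2.31% to 13.2% of all genes were called higher and 1.62% to 9.52% lower. In each of heart, white adipose and muscle, where Gpihbp1 was called, 0 of the 10 markers were called higher and 2 were called lower. Whether the cell mix had a part in the Gpihbp1 values was not tested.

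**Figure D5:**
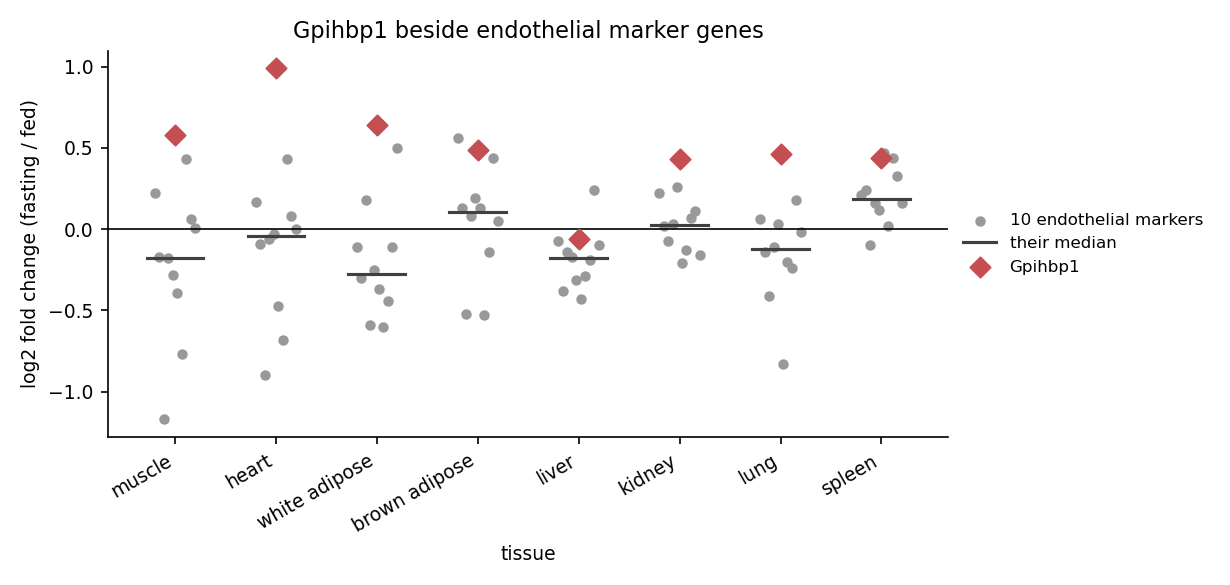
Log2 fold change (fasting over fed) of Gpihbp1 (red diamonds) and of 10 endothelial marker genes (grey points, with their median as a bar) in each tissue, 1 library per treatment. In heart Gpihbp1 lies at 0.99 and the markers at a median of -0.05.

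Lmf1, the folding factor that the lipases need before secretion, was called lower in 3 tissues and higher in none. Of all genes with at least 1 CPM in any library, 5.56% were called lower in at least 3 tissues. Brown adipose had 53.5 CPM fed and 29.6 CPM fasting, 1.81-fold lower (95% counting interval 1.61 to 2.04). White adipose had 33.6 and 23.3 CPM (1.44-fold lower, 1.3 to 1.61) and heart 31.4 and 21.8 CPM (1.44-fold lower, 1.26 to 1.66). In brown adipose, therefore, the transcript of the folding factor fell while that of Lpl rose. Muscle went from 11.6 to 8.47 CPM (log2 fold change -0.45) and liver from 38.8 to 33.0 CPM (-0.23). Kidney (33.2 and 32.9 CPM), lung (19.7 and 20.8 CPM) and spleen (32.8 and 30.5 CPM) were nearly level, and the kidney value changed sign with TMM or DESeq2 scaling (from -0.01 to 0.04). The heart call was lost with TMM or DESeq2 scaling (-0.48 in both), and none of the 3 held at a presumed variation of 0.2. In brown adipose all 6 skeletal muscle markers were called lower too, with sums of 2388 CPM fed and 1097 CPM fasting. In white adipose 3 of 8 adipocyte markers were called lower and 1 higher, and in heart 6 of 7 hepatocyte markers were called higher. The part of these markers in the Lmf1 values was not tested.

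The relatives of the enzyme, Lipc and Lipg, moved in opposite directions in liver. Lipc, which acts on remnant and high-density lipoproteins in the liver, fell from 144 to 95.3 CPM (3312 and 2380 counts), 1.51-fold lower (95% counting interval 1.43 to 1.59), a call that was lost with TMM factors (log2 fold change -0.46) or DESeq2 size factors (-0.47). Lipg, which prefers the phospholipid of high-density lipoproteins, rose in liver from 12.9 to 33.4 CPM (298 and 833 counts), 2.58-fold higher (2.26 to 2.95), and in white adipose from 1.76 to 3.94 CPM (41 and 108 counts), 2.23-fold higher (1.55 to 3.29). The liver call of Lipg held at a presumed variation of 0.2, whereas its white adipose call and the Lipc call did not. In lung, its main site, Lipg had 82.6 CPM fed and 113 CPM fasting (0.45, not called on library totals but called with TMM factors at 0.53). Brown adipose had 6.38 and 4.91 CPM (-0.38) and kidney 22 and 14 counts (-0.84, 95% interval -1.93 to 0.18). Muscle, heart and spleen had 2 to 8 counts of Lipg. Lipc in spleen was level at 3.93 and 3.77 CPM, and the remaining tissues had 1 to 8 counts of it per library, too few to show a difference of this size.

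Vldlr, the receptor that holds triglyceride-rich particles near the enzyme in heart, muscle and fat, was called higher in 4 tissues and lower in 0. Of all genes with at least 1 CPM in any library, 3.82% were called higher in at least 3 tissues. Heart had 710 CPM fed and 1061 CPM fasting, 1.5-fold higher (95% counting interval 1.46 to 1.53), and muscle 487 and 741 CPM, 1.52-fold higher (1.49 to 1.56). Lung had 85.5 and 141 CPM (1.65-fold, 1.57 to 1.73) and spleen 6.27 and 9.59 CPM (1.53-fold, 1.24 to 1.89). Both adipose tissues and liver were nearly level, with 123 and 118 CPM in white adipose (log2 fold change -0.06), 471 and 522 CPM in brown adipose (0.15) and 4.04 and 4.45 CPM in liver (0.14). Kidney leaned lower, at 166 and 136 CPM (-0.29, not called). The called folds lay between 1.5 and 1.65, although the mean level was 886 CPM in heart and 7.93 CPM in spleen. None of the 4 calls held at a presumed variation of 0.2. Lung was the only tissue in which Lpl, Angptl4 and Vldlr were all called higher. Cell type markers moved in the same libraries. In heart 6 of 7 hepatocyte markers were called higher, and in muscle 5 of 8 adipocyte markers lower and 1 higher. In lung 5 of 8 adipocyte markers were called higher and 1 lower, and 5 of 6 cardiomyocyte markers lower. In spleen all 6 acinar markers were called lower, and 3 of 8 adipocyte markers higher. Their part in the Vldlr values was not tested.

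All 16 libraries were then fitted together with edgeR (tissue and treatment, quasi-likelihood test), which tests a common change with fasting over all tissues. It does not test whether the tissues agree in direction. With 7 degrees of freedom left for the residual spread, this fit takes tissues as its units, and those of a treatment all come from the same 3 mice. Angptl4 was higher by a log2 fold change of 2.25 (SE 0.40, adjusted p = 0.0240, higher in 8 of 8 tissues) and Gpihbp1 by 0.54 (SE 0.09, adjusted p = 0.020, higher in 7 of 8 tissues), both past the threshold of 0.05. Of the 23580 genes tested 1.03% were called higher and 0.840% lower. Angptl8 had -1.78 (SE 0.46, adjusted p = 0.0729 by edgeR), Lmf1 -0.29 (SE 0.11, 0.204) and Vldlr 0.35 (SE 0.13, 0.192), each with an unadjusted p under 0.05 and short of the adjusted threshold. Lpl (0.13, SE 0.20, adjusted p = 0.783 by edgeR), Lipc (-0.09, SE 0.19, 0.857) and Lipg (0.47, SE 0.26, 0.357) were further from it. The call of Angptl4 was lost without muscle (adjusted p = 0.0721 by edgeR) or without lung (0.0604), with fold changes of 2.19 in both fits. That of Gpihbp1 was lost without muscle (0.0614), without brown adipose (0.0668), without lung (0.0518) and without both adipose tissues (0.0679), with fold changes of 0.51 to 0.55. Angptl8 was past the threshold when no filter on low counts was used (adjusted p = 0.0326 by edgeR).

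Lists of genes from the surroundings of the enzyme, none of them complete for its family, were read in the same libraries. Of the 48 pairs of 6 particle apolipoproteins and tissue 8 were called higher and 3 lower, with 2.31% to 13.2% of all genes called higher and 1.62% to 9.52% lower by tissue. In liver 4 of the 6 were called higher, against 4.46% of all genes there, with a list median of 0.92 against -0.13 over the 14085 genes at 1 CPM or more. Apoa4, an apolipoprotein known to follow liver triglyceride, went from 50.7 to 2971 CPM in liver (log2 fold change 5.87) and was also called higher in kidney (11.6 and 16.6 CPM) and spleen (0.618 and 3.16 CPM). Apoa5, known for raising lipase activity, went from 738 to 1613 CPM in liver (1.13) and Apoc4 from 264 to 433 CPM (0.71). Apoc1, with 2753 CPM fed and 2249 CPM fasting, was not called there. Outside liver Apoa5 was called lower in muscle (1.25 and 0.453 CPM, 30 and 14 counts) and kidney (0.757 and 0.0388 CPM, 17 and 1 counts). Apoc1 was called lower in kidney (1.92 and 0.970 CPM, 43 and 25 counts). Apob and Apoc1 (0.581 and 2.56 CPM) were called higher in heart, where 6 of 7 hepatocyte markers were called higher too. Of these 7 markers 1 was called higher and 4 lower in kidney, 0 and 1 in muscle, and 2 and 1 in spleen. Their part in the apolipoprotein values outside liver was not tested. Of 4 other angiopoietin-like genes, which are not the whole family, Angptl2 was called lower in 4 tissues, from 52 to 14.2 CPM in muscle, 101 to 49.1 CPM in heart, 180 to 94.3 CPM in white adipose and 126 to 56.5 CPM in brown adipose. Over the 32 pairs of these genes and tissues 3 were called higher and 9 lower, where 2.31% to 13.2% of all genes were called higher and 1.62% to 9.52% lower by tissue, among the higher ones Angptl7 in muscle (15.8 and 67.3 CPM).

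Among 10 docking and receptor genes 9 of 80 pairs were called higher and 8 lower, against the same background of 2.31% to 13.2% higher and 1.62% to 9.52% lower over all genes by tissue. Cd36, the fatty acid transporter that receives the product of the enzyme, rose in muscle (285 and 439 CPM), heart (2433 and 3921 CPM) and spleen (240 and 352 CPM). Sdc4, a heparan sulphate proteoglycan, rose in white adipose (62.6 and 158 CPM) and brown adipose (75.7 and 380 CPM). Sort1 and Sorl1, sorting receptors, each fell in 2 tissues, Sort1 in liver (73.1 and 25.6 CPM) and white adipose (844 and 572 CPM), Sorl1 in brown adipose (93.5 and 20.3 CPM) and liver (5.99 and 4.17 CPM), while Sorl1 rose in white adipose (49 and 79.2 CPM). Of 8 genes of lipase folding and cleavage 5 of 64 pairs were called in each direction, shares within the range of that background. Pcsk5, a proprotein convertase, rose in white adipose (46.5 and 171 CPM), brown adipose (29.2 and 101 CPM) and spleen and fell in heart, and the chaperone gene Calr fell in heart (318 and 187 CPM), kidney (724 and 445 CPM) and lung (403 and 263 CPM). Furin, another proprotein convertase, was called higher in muscle alone (43.6 and 62.3 CPM), and Pcsk6 lower in muscle alone (37.5 and 25 CPM).

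Of 80 pairs of tissue and regulators known to act on these genes, 16 were called lower and 8 higher, with 1.62% to 9.52% of all genes lower and 2.31% to 13.2% higher by tissue. On library totals lower calls also outnumbered higher ones over all genes in 6 of the 8 tissues; with TMM factors they did so in muscle, brown adipose and lung, and the list then had 14 lower and 8 higher. Srebf1, the insulin-responsive factor of lipid synthesis, fell in liver from 342 to 33.5 CPM (log2 fold change -3.35), in brown adipose from 457 to 122 CPM (-1.90), and also in kidney, muscle and white adipose. Mlxipl, the carbohydrate-responsive factor, fell in liver (318 and 124 CPM), muscle, white adipose and brown adipose. Ppara, the fatty acid receptor known to act on Angptl4, rose in liver (145 and 275 CPM), kidney (86.9 and 131 CPM) and white adipose (10.2 and 15.3 CPM) and fell in muscle (12.1 and 6.17 CPM) and heart (57.9 and 40.8 CPM). Nr3c1, the glucocorticoid receptor, fell in liver, white adipose and heart. Of 48 pairs of tissue and 6 further genes of the pancreatic lipase family, 5 were called higher and 4 lower, against the same background by tissue. Pnlip, Pnliprp1 and Pnliprp2 rose in liver and fell in spleen, as the acinar markers did in the same libraries (Pnlip 19.4 and 45.4 CPM in liver, 124 and 0.0719 CPM in spleen). Pla1a fell in liver (45.6 and 27.3 CPM) and rose in lung (1.83 and 3.58 CPM), and Liph rose in lung (43.8 and 68.7 CPM).

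Genes with the most similar pattern were looked up for 4 members, as a description in which all points share the same pools of mice and the same scaling. The names depend on the measure: with Spearman's rho in place of Pearson's r, 0 to 2 of the 3 genes named for a member stayed among its 3 most similar, with 0 for Gpihbp1 in both changes and levels and 0 for the levels of Vldlr. Over the changes of the 8 tissues, Lpl was most like Serinc3 (r = 0.961), Dock9 (0.952) and Map4k2 (0.95) among 7945 genes, of which Serinc3 went from 810 to 1827 CPM in lung and from 259 to 502 CPM in brown adipose. Angptl4 was most like Lipe (0.967), the gene of hormone-sensitive lipase, with 42.7 and 116 CPM in heart and 24.7 and 56.4 CPM in kidney, then Ahnak (0.964) and Spata2 (0.951). A high r here says nothing of size or sign, since Spata2 was lower in the fasting library of all 8 tissues. Gpihbp1 was most like Lats1 (0.976), Sms (0.967) and Cd47 (0.962), and Vldlr most like Ide (0.958), Tmem183a (0.909) and Arpp19 (0.877). Ide, too, was lower in the fasting library of all 8 tissues. Over the levels in the 16 libraries, among 16934 genes, Lpl was most like Ctsd (0.947), Olfr558 (0.942) and Lnx1 (0.936), and Angptl4 most like Chp1 (0.885), Plin2 (0.842), which encodes a coat protein of lipid droplets, and Fam13a (0.836). Gpihbp1 was most like Vwa3a (0.965), Ushbp1 (0.94) and the endothelial gene Hspa12b (0.938), and Vldlr most like Acyp2 (0.969), Ube3b (0.956) and Nol3 (0.945). Among the members themselves the levels of Lpl ran most closely with those of Vldlr (r = 0.80 over 16 libraries) and Gpihbp1 (0.71), and the changes of Lpl with those of Vldlr (r = 0.62 over 8 tissues), while the changes of Lpl and Angptl4 had r = -0.21.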

How the data were processed

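Short-read RNA-Seq of 8 tissues under 2 treatments was analysed, 1 library of 3 pooled mice each. The authors prepared strand-specific paired-end libraries. Read trimming (fastp 0.23.2), quality control (FastQC 0.11.8) and alignment to GRCm38 (HISAT2 2.2.1.0) were theirs, as was the counting with featureCounts (Subread 2.0) on GENCODE genes; the strand setting is not given in the sources used here. They deposited raw counts per gene, with the gene length as another value. Of 55385 genes, 55144 matched a symbol by identifier without version. Counts were divided by library totals (14245178 to 36069968) to give CPM. Each tissue was tested with Fisher's exact test and the fold rule of the study's methods (log2 fold change above 0.5 with a pseudocount of 0.01 CPM, unadjusted p under 0.01), over all genes with a count in that tissue. All libraries were fitted with edgeR 4.0.16 in R 4.3.3 (TMM, filterByExpr on the design of tissue and treatment, quasi-likelihood test, Benjamini-Hochberg adjustment, threshold 0.05), where the common dispersion gave a coefficient of variation of 0.219. Counting intervals are exact (Clopper-Pearson, 95%, conditional on the sum of both counts). Intervals and floors cover counting error only. The SE given with the edgeR fit is derived, as the size of the log2 fold change over the square root of the test's F statistic. The Fisher and edgeR steps were run on simulated counts as a check of the code. The counts for Fisher's test had no spread between libraries beyond counting. Those for edgeR gave each changed gene the same change in every tissue, with independent noise. Neither run bears on the spread between mice.

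The genes, lists and tests were chosen with earlier results of these data known. Named genes were all 8 members, up to 4 genes per list called in most tissues, the 3 genes most like each of 4 members by Pearson r of changes and of log2(CPM + 1), the markers beside a result and genes overlapping a member. Alternatives were other scalings, pseudocounts, thresholds and filters, edgeR's exact test with a presumed variation, DESeq2 1.42.0 and the fit without each tissue. Promoter windows came from RefSeq's table. No column of per-sample values was left aside.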

Additional observations from a re-analysis of the deposited data

Results flagged for a closer look

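Lpl was called in opposite directions in different tissues. Its log2 fold change was 1.02 in lung and 0.88 in brown adipose but -0.78 in kidney, each from 1 fed and 1 fasting library. The difference between the tissues was not tested, since no tissue has a replicate. Of 8 adipocyte markers 5 were called higher and 1 lower in lung, 1 higher and 2 lower in brown adipose and 3 higher and 2 lower in kidney, with median log2 fold changes of 0.58, -0.22 and 0.27. Their part in the Lpl values was not tested.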

How the results depend on the processing

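The 18 pairs of member and tissue called higher became 9 when the log2 fold change had to exceed 1, 7 in edgeR's exact test at a presumed coefficient of variation of 0.2 and 4 at 0.4, and the 8 called lower became 3, 3 and 2. TMM factors gave 21 higher and 6 lower and DESeq2 size factors 20 and 6. The other alternatives left the counts at 18 and 8. In the edgeR fit across tissues, leaving out each tissue in turn gave log2 fold changes from -0.01 (without lung) to 0.25 for Lpl, from 1.99 to 2.53 for Angptl4, from 0.47 to 0.61 for Gpihbp1 and from -0.18 to 0.18 (without liver) for Lipc, so that Lpl and Lipc changed sign; neither was called in any of these fits. Without both adipose tissues Gpihbp1 had 0.55 and lost its call, and with no filter on low counts Angptl8 had -1.78 and gained one. Over all genes, 243 were called higher and 198 lower. Leaving out 1 tissue gave 57 (without brown adipose) to 274 higher and 24 (without brown adipose) to 227 lower. Leaving out both adipose tissues gave 105 and 51, no filter 374 and 303, DESeq2 844 and 988, and a filter on the treatment groups alone, added after seeing the data, 400 and 359. Library totals in place of TMM gave 394 lower. The cause of these differences was not tested. TMM moved the median log2 fold change of all genes from -0.13 to 0.00 in liver and from 0.07 to -0.05 in white adipose. It turned the genes called higher and lower from 1117 and 2384 to 1589 and 1583 in liver, from 3968 and 1748 to 3293 and 2496 in white adipose, from 835 and 2019 to 1094 and 1587 in lung and from 1131 and 2404 to 1447 and 1900 in muscle. Heart went from 1126 and 1509 to 1323 and 1254 and kidney from 772 and 1095 to 904 and 878. The edgeR fit across tissues sets the fed and the fasting library of a tissue against each other through its tissue term. A block on replicate numbers could not be added, since each tissue and treatment has 1 library. Depth limited Angptl8 and Lipg in muscle, heart, spleen and kidney, Angptl8 in lung as well, and Lipc in all tissues but liver and spleen.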
